A study of Sus scrofa with 6 samples.

Results

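Genes of the Wnt and Notch pathways were taken by name from the RNA-seq table of porcine granulosa cells (GCs), the steroid-producing cells that line the ovarian follicle. The rule matched Ensembl pig gene names to the families *WNT*, *RSPO*, *FZD*, *SFRP*, *DKK*, *DVL*, *AXIN*, *NOTCH*, *JAG*, *DLL*, *HES* and *HEY* with a digit, and to 14 single genes such as *CTNNB1*, *LRP5*, *TCF7* and *RBPJ*. It found 53 of the 17950 genes, 39 of the Wnt pathway and 14 of the Notch pathway. The names table pairs 23 further symbols of the rule, *NOTCH1*, *HES1*, *WNT5A* and *DKK1* among them, with identifiers other than those of the 17950 genes, and these were not analysed here.

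GCs aspirated from slaughterhouse ovaries of pre-pubertal Landrace gilts, with no source here saying how animals were divided over libraries, were infected for 72 h with a lentivirus. In the pLVX-*RBP4* group the pLVX-IRES-ZsGreen vector carried the porcine cDNA of *RBP4*, the retinol carrier, and in the CTRL group the same vector was blank, so that virus and ZsGreen were common to both. Each group had 3 libraries, but the table holds 1 FPKM value (fragments scaled to transcript length and to the mapped fragments of the library) per gene and group. No spread between replicates, test or p-value can therefore be given for any difference here, and the number of fragments behind each value is unknown. The paper lists more mapped reads, and a higher mapped share of reads, for each pLVX-*RBP4* library than for any CTRL library. The part of this depth in genes with a value in only 1 group was not tested.

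Wnt proteins are secreted ligands that bind frizzled (FZD) receptors and the co-receptors LRP5 and LRP6. In the canonical branch this stops the destruction complex of AXIN, APC and GSK3B from degrading β-catenin (CTNNB1), which then acts with TCF and LEF factors in the nucleus. Notch receptors are cut when a Jagged or Delta-like ligand on a neighbouring cell binds them, and the freed intracellular part works with RBPJ and MAML proteins on target genes of the HES and HEY families. In the ovary both pathways are known for roles in follicle formation and in the growth and steroidogenesis of GCs.

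*RBP4* (ENSSSCG00000010479) had 1.105 FPKM in CTRL GCs and 92.3 FPKM in pLVX-*RBP4* GCs. The columns of the table are named only by the initials C and R and were taken as CTRL and pLVX-*RBP4* from these and from the level of *RBP4*, which is therefore no independent check of the groups. The table does not separate the introduced from the endogenous transcript. Further pairs of levels are given with CTRL first. Differences were taken on the scale of log2(FPKM + 1), pLVX-*RBP4* minus CTRL, for the 12382 genes with a mean of at least 1 FPKM over both groups, and a gene was called higher or lower from a difference of 0.32 on that scale. For genes of low level this scale understates the ratio of the FPKM values. Of 11 GC markers, 6 were found by symbol, all with a mean of at least 1 FPKM. None was called, beside 7.11% of all genes called higher and 5.31% called lower. Values were lower with pLVX-*RBP4* in 5 of the 6 as deposited and in 2 after rescaling both groups to a common sum. Over all genes these shares of lower values were 49.8% and 35.1%. *CYP11A1*, the first enzyme of steroid synthesis, had 672.9 and 669.4 FPKM, *GATA4*, a transcription factor of GCs, 59.2 and 57.8 FPKM, and *FSHR*, the receptor of FSH, 9.99 and 8.47 FPKM. The summed level of 6 stromal markers, led by the actin-binding *TAGLN*, was 3221 and 3483 FPKM, with 5 of the 6 higher as deposited and after this rescaling. The 4 leukocyte markers summed to 47.6 and 54.1 FPKM, mostly *CD14*. Of the others, *CD68* had 4.02 and 4.59 FPKM, *CSF1R* 0.414 and 0.428 FPKM, and *PTPRC* 0.229 and 0.166 FPKM. The sums were 13.3 and 13.5 FPKM for 3 epithelial markers and 0.209 and 0.385 FPKM for 2 theca markers, and the oocyte gene *GDF9* had 3.36 and 3.51 FPKM. The 2 theca markers went opposite ways. *LHCGR* had 0.209 and 0.0937 FPKM, and *INSL3*, listed at 0 in CTRL GCs, had 0.292 FPKM in pLVX-*RBP4* GCs. The part of all these markers in the results below was not tested. In such bulk values fewer cells of a type and less RNA per cell cannot be told apart.

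Of the 39 Wnt genes, 28 had a mean of at least 1 FPKM, and their differences were small. Only *FZD3* among these 28 was called higher, and *WNT7B* and *TCF7L2* were called lower, against 7.11% of all genes called higher and 5.31% called lower. Differences within 0.1 of 0 were found for 13 of the 28 genes, or 46.4%, compared with 39.4% of all genes. The median of the 28 was -0.033 as deposited and 0.044 after rescaling both groups to a common sum (TPM), which moved the median of all genes from 0.0014 to 0.072, so that the Wnt median minus that of all genes was -0.035 and -0.029. Values were lower with pLVX-*RBP4* in 19 of the 28 genes as deposited and in 12 after rescaling to TPM, against 49.8% and 35.1% of all genes. The scaling also changed the balance of all calls, with 880 genes higher and 658 lower as deposited, 699 and 845 at a common upper quartile, and 1469 and 402 as TPM.

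**Figure D1:**
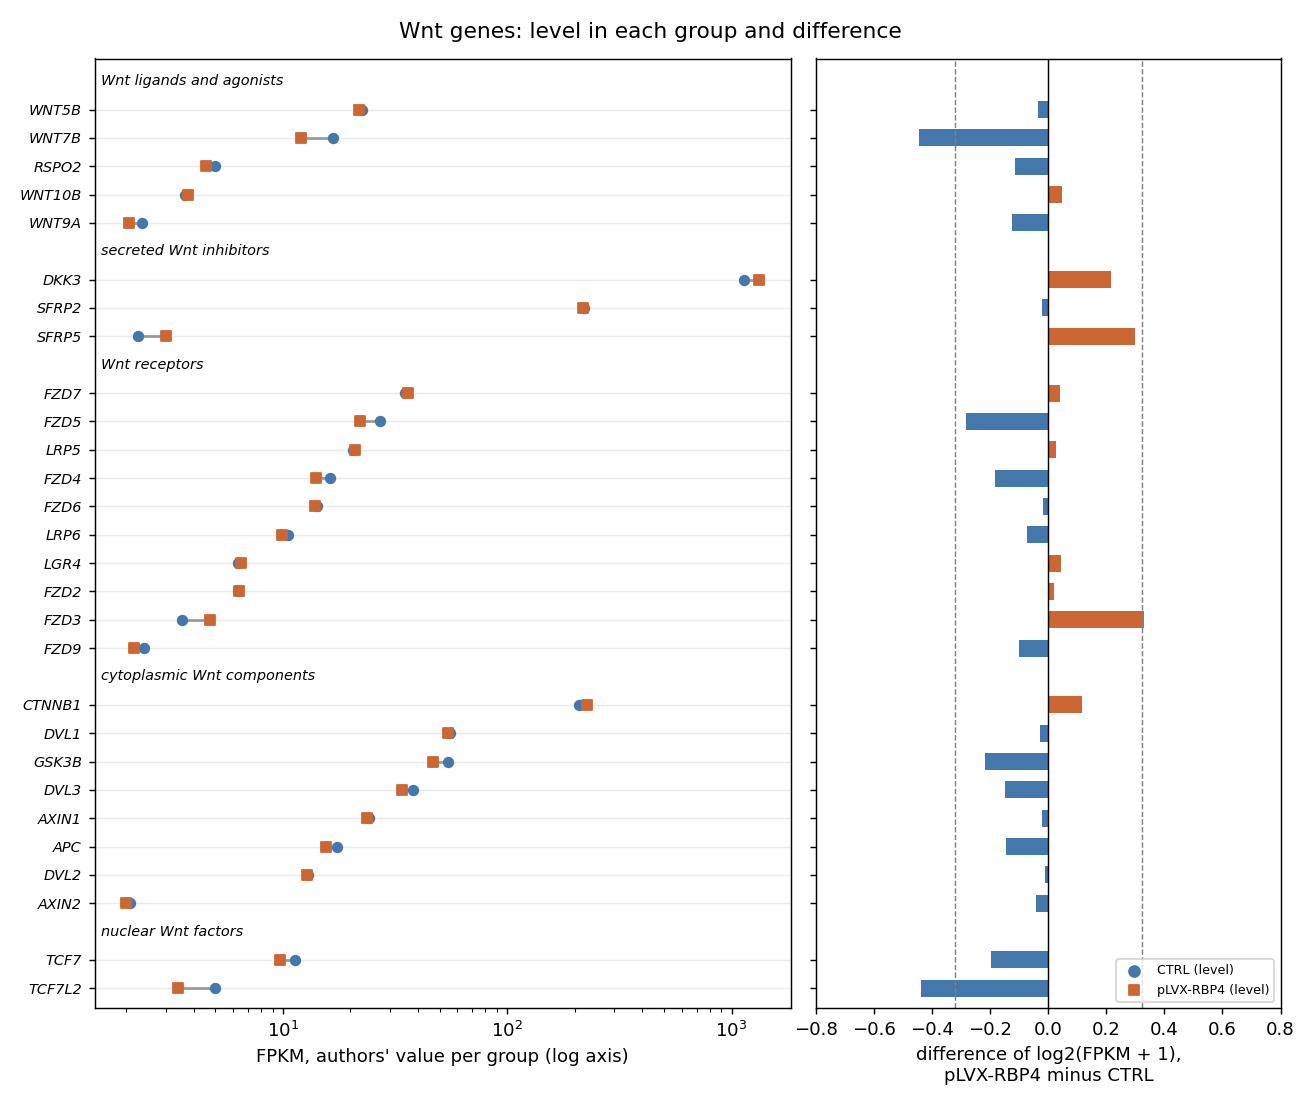
Wnt genes with a mean of at least 1 FPKM, ordered by role and level. Left, the authors' FPKM value of the CTRL group (circles) and the pLVX-RBP4 group (squares) on a log axis. Right, the difference of log2(FPKM + 1), with dashed lines at the limit for a call. Of the 28 genes, FZD3 lies past the line on the right and WNT7B and TCF7L2 past the line on the left.

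The ligands analysed were led by *WNT5B* and *WNT7B*, which together made up most of the WNT level summed over 10 genes. *WNT5B*, a ligand mostly linked to β-catenin-independent signalling, had 22.5 FPKM in CTRL GCs and 21.9 FPKM in pLVX-*RBP4* GCs, a difference of -0.038 that became 0.038 as TPM. *WNT7B* (ENSSSCG00000027365), which can signal through β-catenin, had 16.8 and 12.03 FPKM, a ratio of 0.718 and a difference of -0.45. It was called under each scaling, from -0.48 at a common upper quartile to -0.37 as TPM. Among the 3653 genes with a mean from 10 to 30 FPKM, 4.13% were called lower, and the 5th percentile was -0.30. *WNT7B* made up 35.9% of the summed WNT level in CTRL GCs and 29.1% in pLVX-*RBP4* GCs, while the shares of *WNT5B* were 48.1% and 52.9%.

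*WNT10B* had 3.64 and 3.79 FPKM, and *WNT9A* had 2.35 and 2.07 FPKM, with differences of 0.046 and -0.12. *RSPO2*, an R-spondin that raises Wnt sensitivity by keeping frizzled receptors at the cell surface, had 5.01 and 4.55 FPKM (-0.11). *WNT10B* and *WNT1* are neighbours in the RefSeq annotation of Sscrofa11.1, yet *WNT1* stayed near the floor of the table with 0.0967 and 0.0728 FPKM.

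Among the genes analysed, which leave out *DKK1* and *WNT5A* among others, the secreted inhibitors were far more abundant than the ligands. These inhibitors had 1364 FPKM in CTRL GCs and 1546 FPKM in pLVX-*RBP4* GCs over 4 genes, against 46.7 and 41.3 FPKM over 10 *WNT* genes. Most of the inhibitor sum was *DKK3*, a divergent member of the dickkopf family whose action on Wnt signalling is less settled than that of DKK1. *DKK3* had 1141 and 1326 FPKM, a difference of 0.22, and stood at the 99.3rd percentile of level among the 12382 genes. *SFRP2*, which binds Wnt ligands through a frizzled-like domain, had 220.4 and 217.2 FPKM. Its difference of -0.021 became 0.058 as TPM. *SFRP5*, of the same family, had 2.27 and 3.02 FPKM, a difference of 0.30 that stayed short of the limit for a call as deposited and passed it as TPM, at 0.35.

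Frizzled receptors were represented by 8 genes. *FZD7* was the highest with 35.1 FPKM in CTRL GCs and 36.1 FPKM in pLVX-*RBP4* GCs, followed by *FZD5* with 27.0 and 22.0 FPKM. *FZD5* had the lowest difference of the receptors, -0.28, which was not called and lay above the 5th percentile of genes of like level (-0.30). *FZD4*, a receptor known for its part in corpus luteum formation, had 16.2 and 14.1 FPKM, a difference of -0.19. The other levels were 14.2 and 14.0 FPKM for *FZD6*, 6.30 and 6.40 FPKM for *FZD2*, and 2.403 and 2.17 FPKM for *FZD9*, while *FZD10* was weakly expressed with 0.182 and 0.227 FPKM.

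*FZD3* (ENSSSCG00000009679), a receptor linked to planar cell polarity and axon guidance, was the only frizzled gene called, and was higher with pLVX-*RBP4*. It had 3.57 FPKM in CTRL GCs and 4.74 FPKM in pLVX-*RBP4* GCs, a ratio of 1.33 and a difference of 0.33. Of the 3569 genes with a mean from 3 to 10 FPKM, 6.56% were called higher, and the 95th percentile was 0.37, so *FZD3* lay inside the range of genes of like level. The call was lost at a common upper quartile, with 0.30.

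The co-receptors had nearly equal levels in both groups. *LRP5* had 20.6 and 21.0 FPKM and *LRP6* had 10.5 and 9.95 FPKM. *LGR4*, a receptor of R-spondins, had 6.28 and 6.50 FPKM, while its relative *LGR5*, listed at 0 in CTRL GCs, had 0.0302 FPKM in pLVX-*RBP4* GCs. The 10 receptors and co-receptors with a mean of at least 1 FPKM split evenly, with 5 higher and 5 lower as deposited, 3 and 7 at a common upper quartile, and 6 and 4 as TPM.

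**Figure D2:**
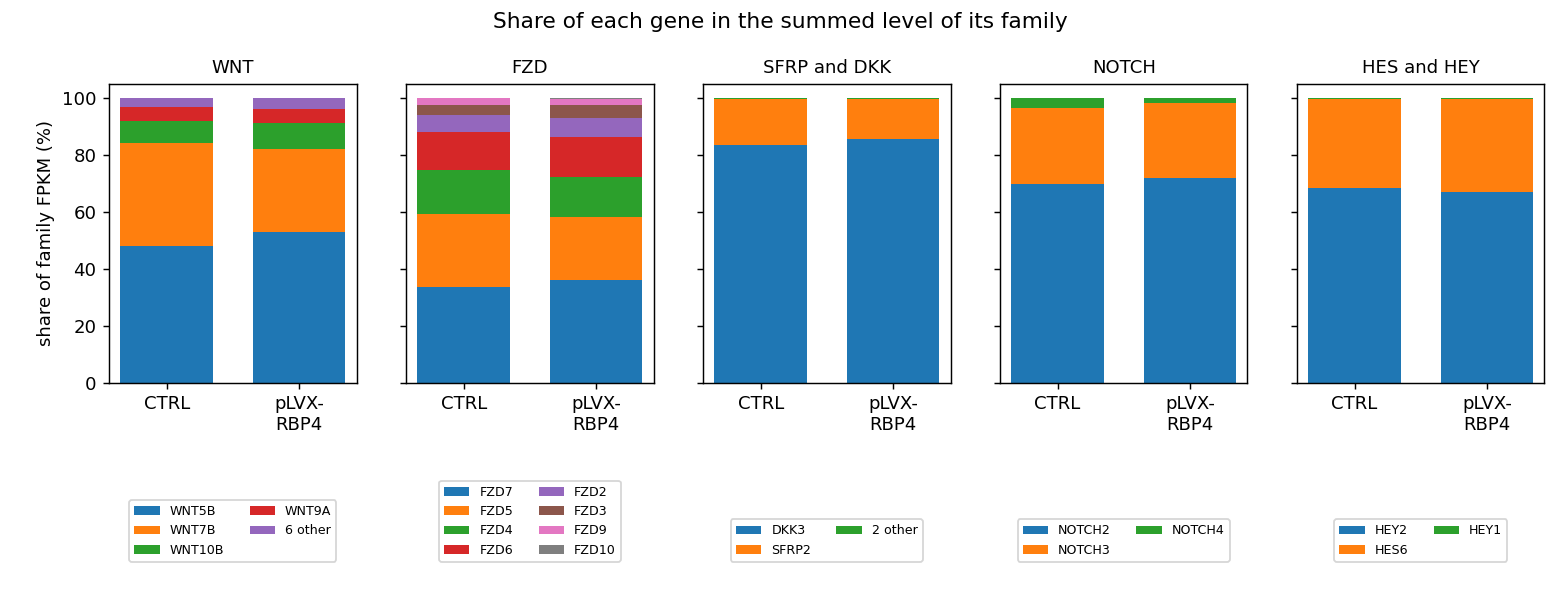
Share of each gene in the summed FPKM of its family (y axis, %), for the WNT, FZD, SFRP and DKK, NOTCH, and HES and HEY genes of the CTRL group (left bar) and the pLVX-RBP4 group (right bar). Of the genes analysed, the leading one of each family is the same in both groups. WNT7B goes from 35.9% to 29.1% and NOTCH4 from 3.47% to 1.77%.

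None of the 8 cytoplasmic components was called, beside 7.11% of all genes called higher and 5.31% called lower. *CTNNB1*, which encodes β-catenin, was the most abundant with 209.0 FPKM in CTRL GCs and 226.6 FPKM in pLVX-*RBP4* GCs, a difference of 0.12. *GSK3B*, the kinase that marks β-catenin for degradation, had 54.3 and 46.5 FPKM (-0.22), and *APC*, a scaffold of the destruction complex, had 17.4 and 15.6 FPKM (-0.15). Both were also lower as TPM, as was *DVL3*, with 37.9 and 34.1 FPKM (-0.15).

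The dishevelled genes code for the adaptors that pass the signal on from the frizzled receptors. *DVL1* had 55.6 and 54.4 FPKM and *DVL2* had 12.9 and 12.8 FPKM. *AXIN1*, the constitutive scaffold of the destruction complex, had 24.2 and 23.8 FPKM. *AXIN2*, a scaffold that is itself a widely used target of β-catenin signalling, was much lower with 2.09 and 2.002 FPKM, a difference of -0.042. The differences of *DVL1*, *DVL2*, *AXIN1* and *AXIN2* were below 0 as deposited and above 0 as TPM.

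Of the nuclear factors, *TCF7L2* (ENSSSCG00000010638) was called lower. It had 4.97 FPKM in CTRL GCs and 3.40 FPKM in pLVX-*RBP4* GCs, a ratio of 0.685 and a difference of -0.44, and was called under each scaling. Among genes with a mean from 3 to 10 FPKM, 6.58% were called lower and the 5th percentile was -0.37. *TCF7* had the higher level, 11.3 and 9.76 FPKM, with a difference of -0.20, while *LEF1* was weakly expressed in both groups with 0.149 and 0.132 FPKM.

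The 11 Wnt genes with a mean below 1 FPKM had values of at most 0.854 FPKM. *RSPO3* (0.225 FPKM), *WNT16* (0.0345 FPKM) and *LGR5* were listed at 0 in CTRL GCs and had values in pLVX-*RBP4* GCs. Over all genes, 1376 of 17950 were listed at 0 in 1 group only. The part of the larger number of mapped reads in the pLVX-*RBP4* libraries was not tested. Of the 8 Wnt genes with values in both groups, 5 were lower and 3 higher with pLVX-*RBP4*. *WNT2B* had 0.689 and 0.854 FPKM, *WNT3* 0.276 and 0.365 FPKM, *SFRP1*, a Wnt antagonist, 0.409 and 0.338 FPKM, *WNT10A* 0.263 and 0.131 FPKM, and *WNT11* 0.148 and 0.101 FPKM. Of the 865 genes with a mean below 0.1 FPKM and no value at 0, 123 had a ratio from 0.7 to 0.8, more than any other bin of that width, and *WNT1*, at 0.753, was among them.

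Other genes of the Wnt pathway were taken from a list of 46, of which 33 were found by symbol and 32 had a mean of at least 1 FPKM. *FRZB*, a secreted frizzled-related protein, was called higher with 3.06 and 4.14 FPKM (0.34). *TNKS*, a tankyrase that promotes the turnover of axins, was called lower with 12.7 and 9.57 FPKM (-0.37), and so was *PYGO1*, a nuclear partner of β-catenin and BCL9, with 3.46 and 2.55 FPKM (-0.33). None of these 3 calls held under each scaling, since *FRZB* was not called at a common upper quartile, and neither *TNKS* nor *PYGO1* was called as TPM. The most abundant gene of this list was *CSNK1A1*, casein kinase 1α of the destruction complex, with 158.4 and 171.1 FPKM, and the genes for Wnt lipidation and secretion were present, *PORCN* with 38.4 and 42.5 FPKM and *WLS* with 53.0 and 51.4 FPKM. As deposited 22 of the 32 genes were lower, and 18 as TPM, against 49.8% and 35.1% of all genes. The calls, 1 higher and 2 lower, stand beside 7.11% and 5.31% of all genes.

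Known targets of β-catenin signalling gave 10 genes by symbol from a list of 16, and 4 of these 10 are *AXIN2*, *TCF7*, *LEF1* and *LGR5*, described above. Of the 7 targets with a mean of at least 1 FPKM none was called, beside 7.11% of all genes called higher and 5.31% called lower. Differences of the 7 targets ran from -0.20 for *TCF7* to 0.14 for *BMP4*, a ligand of the TGF-β superfamily with 15.1 and 16.9 FPKM. Below that limit, *TNFRSF19* had 1.246 and 0.565 FPKM, a larger difference of -0.52. Its mean of 0.905 FPKM kept it from being called. *CD44*, a hyaluronan receptor, was the most abundant with 144.7 and 142.5 FPKM, and *MYC* had 69.5 and 66.8 FPKM. *ZNRF3* and *RNF43*, ubiquitin ligases that remove frizzled receptors, had 1.64 and 1.82 FPKM and 1.32 and 1.24 FPKM.

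Of the 14 Notch genes, 10 had a mean of at least 1 FPKM. None of the 10 was called higher, against 7.11% of all genes, and *NOTCH4* and *JAG2* were called lower, against 5.31% of all genes. Both had under 1 FPKM in pLVX-*RBP4* GCs and passed the limit on the mean through their CTRL level. Their count, and their place among genes of like level, are therefore a description only. The median of the 10 was -0.13 as deposited and -0.061 as TPM, and minus the median of all genes it was -0.13 under both. Values were lower in the pLVX-*RBP4* group in 7 of the 10 genes as deposited, in 8 at a common upper quartile and in 6 as TPM. Over all genes the shares were 49.8%, 56.6% and 35.1%.

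**Figure D3:**
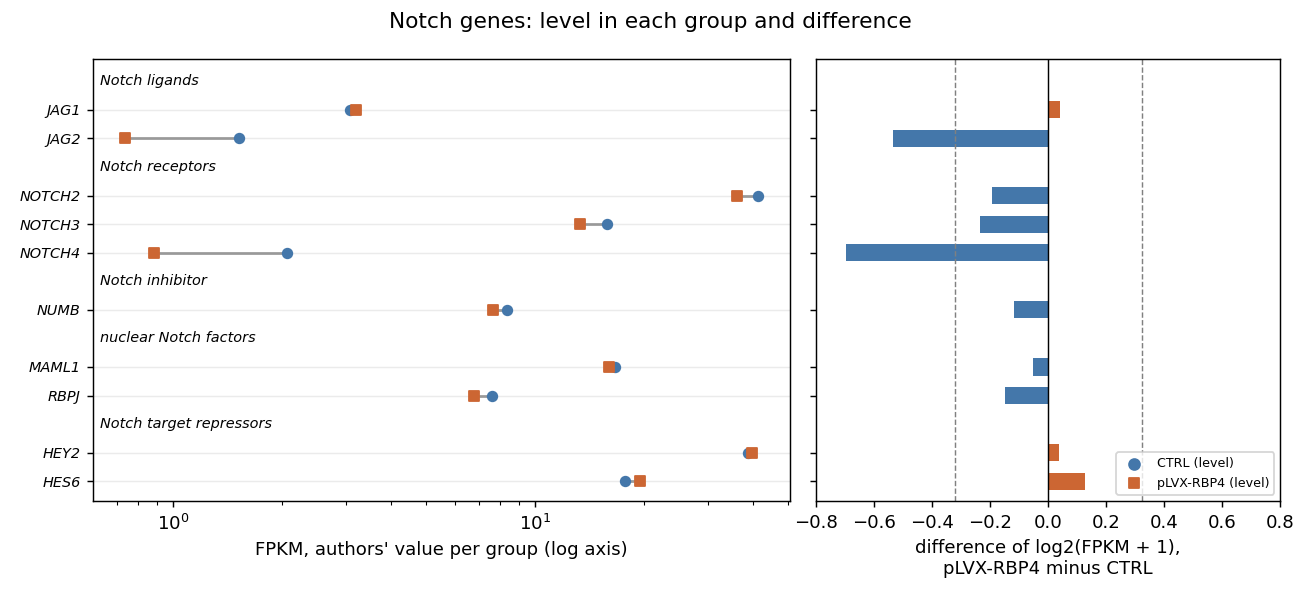
Notch genes with a mean of at least 1 FPKM, ordered by role and level. Left, the authors' FPKM value of the CTRL group (circles) and the pLVX-RBP4 group (squares) on a log axis. Right, the difference of log2(FPKM + 1), with dashed lines at the limit for a call. NOTCH4 and JAG2, the genes of the lowest level, lie past the line on the left. All 3 receptors analysed, which leave out NOTCH1, are lower in the pLVX-RBP4 group, under each scaling.

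All 3 Notch receptors analysed here, which leave out *NOTCH1*, had lower values in the pLVX-*RBP4* group under each scaling. *NOTCH2*, the main Notch receptor of GCs in the mouse follicle, had 41.4 FPKM in CTRL GCs and 36.1 FPKM in pLVX-*RBP4* GCs, a difference of -0.19. *NOTCH3*, best known from the smooth muscle and pericytes of vessels, had 15.8 and 13.3 FPKM (-0.23). Neither was called, and *NOTCH2* made up 69.9% and 71.8% of the NOTCH level summed over these 3 genes, itself 59.2 and 50.2 FPKM.

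*NOTCH4* (ENSSSCG00000001440), known mostly from endothelium, had 2.06 FPKM in CTRL GCs and 0.887 FPKM in pLVX-*RBP4* GCs. Its ratio of 0.431, or -1.21 as log2, was the lowest of the 38 Wnt and Notch genes with a mean of at least 1 FPKM. The difference of -0.70 lay below the 5th percentile of the 1911 genes with a mean from 1 to 3 FPKM (-0.49), of which 11.0% were called lower. It was called under each scaling, from -0.72 at a common upper quartile to -0.62 as TPM. As *NOTCH4* passed the limit on the mean through its CTRL level, these values are a description only. Endothelial markers, of which 4 of 7 were found by symbol, summed to 20.4 FPKM in CTRL GCs and 19.6 FPKM in pLVX-*RBP4* GCs. *PECAM1* had 16.3 and 16.0 FPKM, *KDR* had 3.55 and 3.03 FPKM, *TIE1* had 0.501 and 0.520 FPKM, and *ESAM*, listed at 0 in CTRL GCs, had 0.0615 FPKM in pLVX-*RBP4* GCs. Their part in the level of *NOTCH4* was not tested.

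Of the 5 ligands, *JAG1* and *JAG2* had a mean of at least 1 FPKM. *JAG1* had nearly equal levels in both groups, with 3.07 and 3.19 FPKM. *JAG2* (ENSSSCG00000002555) had 1.52 FPKM in CTRL GCs and 0.736 FPKM in pLVX-*RBP4* GCs, a ratio of 0.485, or -1.04 as log2. The difference of -0.54 lay below the 5th percentile of genes from 1 to 3 FPKM, and it was -0.47 as TPM. With 1.13 FPKM on average it passed the limit of 1 FPKM narrowly, through its CTRL level, at the 1.45th percentile of level.

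The Delta-like ligands were near the floor of the table. *DLL1* had 0.756 and 0.515 FPKM, *DLL4*, an endothelial ligand, had 0.0139 FPKM in CTRL GCs and was listed at 0 in pLVX-*RBP4* GCs, and *DLL3* was listed at 0 in both. Levels of the ligands were thus low beside those of the receptors, with a sum of 5.36 and 4.44 FPKM over 5 ligands.

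The nuclear partners of the receptors showed no call. *MAML1*, a coactivator, had 16.6 and 16.0 FPKM, and its difference of -0.054 became 0.021 as TPM. *RBPJ*, the DNA-binding factor of the pathway, had 7.59 and 6.76 FPKM, a difference of -0.15. *NUMB*, an endocytic adaptor that opposes Notch, had 8.36 and 7.63 FPKM (-0.12).

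Among the HES and HEY genes analysed, which leave out *HES1*, *HEY2* and *HES6* had values above 1 FPKM and were not lower as deposited. *HEY2*, a transcriptional repressor, had 38.7 FPKM in CTRL GCs and 39.7 FPKM in pLVX-*RBP4* GCs, a difference of 0.037 that became -3.34e-05 at a common upper quartile. *HES6*, a divergent member that counteracts HES1, had 17.7 and 19.5 FPKM (0.13) and was higher under each scaling. *HEY1* was weakly expressed, with 0.197 and 0.150 FPKM, a ratio of 0.762.

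**Figure D4:**
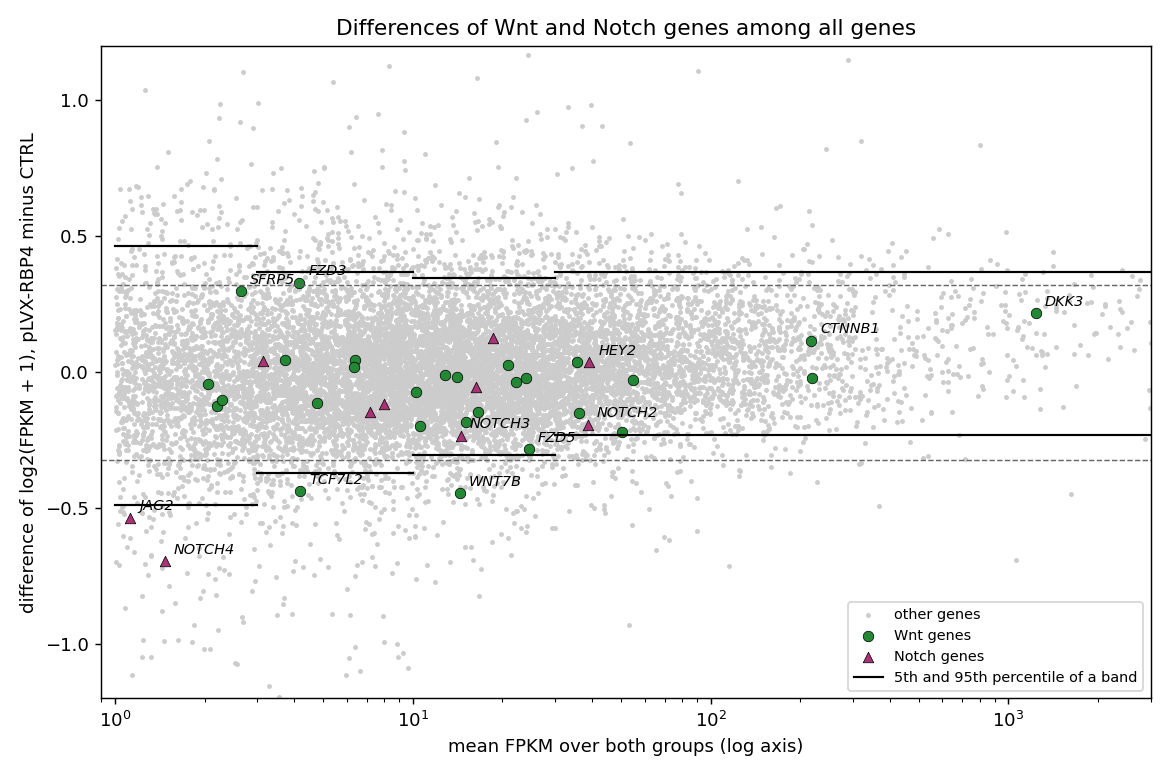
Difference of log2(FPKM + 1), pLVX-RBP4 minus CTRL (y axis), by the mean FPKM of both groups (x axis, log), for genes with a mean of at least 1 FPKM. Circles are Wnt genes, triangles Notch genes and small grey points all other genes; 118 of the 12382 genes, with a difference beyond 1.2 or a mean above 3000 FPKM, lie outside the plot. Dashed lines mark the limit for a call and solid lines the 5th and 95th percentile of 4 bands of level. WNT7B, TCF7L2, JAG2 and NOTCH4 lie below the solid lines, and no Wnt or Notch gene lies above them. JAG2 and NOTCH4 passed the limit on the mean through their CTRL level.

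Other genes of the Notch pathway were taken from a list of 39, of which 28 were found by symbol and 22 had a mean of at least 1 FPKM. None of the 22 was called as deposited, beside 7.11% of all genes called higher and 5.31% called lower. At a common upper quartile, where 845 of the 12382 genes were called lower, 1 of the 22 was. This was *FBXW7*, the ubiquitin ligase that marks the cleaved receptor for degradation, with 13.8 and 11.1 FPKM and a difference of -0.29 as deposited. *APH1A* and *NCSTN*, of the γ-secretase that cuts the receptor, differed in opposite directions. *APH1A* had 113.1 and 124.6 FPKM (0.14) and *NCSTN* had 70.8 and 63.9 FPKM (-0.15). *ADAM17*, a sheddase of the receptors, had 40.2 and 40.9 FPKM. *NRARP*, a feedback target of Notch listed at 0 in CTRL GCs, had 0.223 FPKM in pLVX-*RBP4* GCs.

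**Figure D5:**
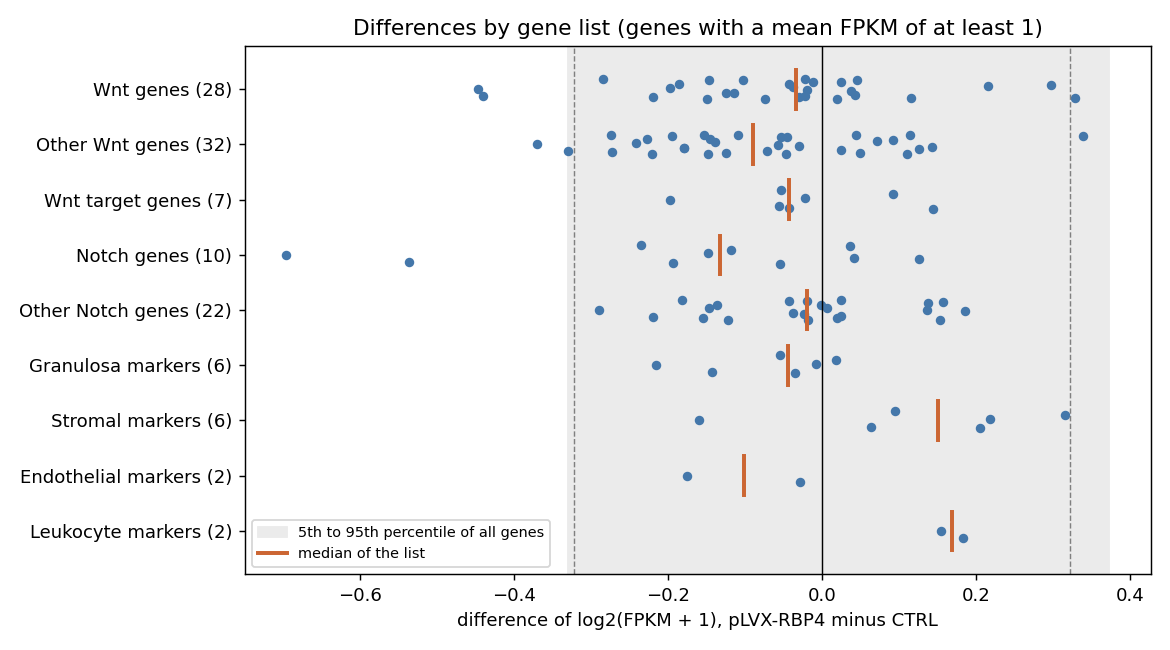
Differences of log2(FPKM + 1), pLVX-RBP4 minus CTRL (x axis), for the genes of 9 lists with a mean of at least 1 FPKM, whose number is given in brackets. Points are genes, with vertical offsets for legibility only, and the orange bar is the median. The grey area runs from the 5th to the 95th percentile of all genes and dashed lines mark the limit for a call. The medians of the 5 pathway lists lie between -0.13 and 0 as deposited, and those of the stromal and leukocyte markers lie at 0.15 and 0.17. As TPM, 3 of the pathway medians, of Wnt, Wnt targets and other Notch genes, lie above 0. They stay below the median of all genes under that scaling, 0.072.

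The chromosomal neighbours of the 5 called genes were looked at for like differences. In the RefSeq order of protein-coding genes on Sscrofa11.1, up to 2 neighbours on each side were looked up, and 12 had a value here. Of these, *HABP2* and *GPSM3* had a mean below 1 FPKM and could not be called. Only 1 was called in the same direction as the member, *NRAP*, the 2nd neighbour of *TCF7L2*, with 2.38 and 1.58 FPKM. In the other direction 2 were called, *ZNF395*, a 2nd neighbour of *FZD3*, with 33.0 and 25.6 FPKM, and *CDCA4*, a 2nd neighbour of *JAG2*, with 26.7 and 39.5 FPKM. Over all genes with a mean of at least 1 FPKM, 7.11% were called higher and 5.31% lower. *PBX2* and *GPSM3*, neighbours of *NOTCH4*, had differences of 0.084 and 0.015.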

How the data were processed

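RNA of 6 libraries, 3 per group, was sequenced. The authors aligned the clean paired-end reads to Sscrofa10.2 with TopHat2 and compared the groups with Cuffdiff. What they deposited is FPKM, 1 value per gene and group in 2 columns, both used and 0 left out. Versions, annotation release and the handling of strand and multiply mapped reads are not given in the sources used here, so reads of close paralogs or antisense genes cannot be told apart. Limma had been planned for values per library, and with 1 value per group no test was run.

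Symbols came from a table of Ensembl names, which matched 10489 of 17950 genes. RefSeq (Sscrofa11.1) gave gene order only. Differences of log2(FPKM + 1) were taken for genes with a mean of at least 1 FPKM. All members above this limit are named; of the other lists, the called and the highest genes are named by rule, and further ones after their values were seen, as were the 4 bands of level. The members and lists were chosen with earlier results of these data known. Alternatives were pseudocounts of 0.1 and none, no filter, a mean of at least 5 FPKM, a common median, upper quartile or sum, a 1.5-fold limit and the mean of a list. The calculations were checked on values with known folds. Python 3.11.15, numpy 2.4.6, pandas 2.3.3 and matplotlib 3.10.9 were used.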

Additional observations from a re-analysis of the deposited data

How the results depend on the processing

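No paired analysis was possible because the table holds 1 value per gene and group, and for the same reason no replicate could be left out. A count was taken as moved from a change of 1.5 times, and a value on the log2 scale from 0.1. Instead of 1 Wnt gene, 2 were called higher with a pseudocount of 0.1, with none, and as TPM (*FZD3* and *SFRP5*), and 0 at a common upper quartile, with a mean of at least 5 FPKM, which leaves out *FZD3*, or from 1.5-fold. Instead of 2 Wnt genes, 1 was called lower with a mean of at least 5 FPKM (*WNT7B*) and 0 from 1.5-fold. Of the 2 Notch genes called lower, 0 remained with a mean of at least 5 FPKM, which leaves out *JAG2* and *NOTCH4*, and 1 from 1.5-fold (*NOTCH4*). *JAG2* fell short of the 1.5-fold limit on the scale of log2(FPKM + 1), at -0.54, though the ratio of its FPKM values was 0.485. The count of Wnt genes with a lower value, a measure added after seeing the data, went from 19 to 12 as TPM. The medians of both lists moved by less than 0.1 under each alternative, between -0.067 and 0.044 for Wnt and between -0.18 and -0.061 for Notch. Of single genes, 4 moved without a pseudocount, *TCF7L2* to -0.55, *SFRP5* to 0.41, *JAG2* to -1.04 and *NOTCH4* to -1.21. Scaling changed the sign of 8 genes as TPM and of 3 at a common upper quartile, all with differences of at most 0.054 in size as deposited. Fragment counts are unknown, so the counting error of weakly expressed genes could not be given.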
